A study of Homo sapiens with 6 samples.

Results

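The genes described here encode laminin chains and the other proteins of the basement membrane, the sheet of extracellular matrix on which epithelial cells and pluripotent stem cells rest. They are 35 genes chosen by name, with earlier results of these data known. Each symbol matched 1 of the 60499 Ensembl gene IDs in the deposited tables. Their RNA was measured by sequencing in H1, a long-established line of human embryonic stem cells. These cells grew for 4 days in NutriStem medium, changed daily, and RNA was taken at confluence. Of the 6 wells, 3 were coated with the protein laminin-521 (LN-521) and 3 with laminin-521 and laminin-221 together (LN-521+LN-221). Every well therefore held laminin-521, no well lacked a laminin coating, and all wells held the same line. The p-values below measure the spread between wells of 1 line and not between lines. The comparison asks what laminin-221 adds to RNA levels when laminin-521 is already present.

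A laminin joins 1 chain each of the alpha, beta and gamma classes and is named by the numbers of its chains. Laminin-521 and laminin-221 share their beta and gamma chains, from LAMB2 and LAMC1, and differ in the alpha chain, from LAMA5 in the former and LAMA2 in the latter. Secreted laminins polymerise at the cell surface, where integrins and dystroglycan bind them. A second network, of collagen IV, is tied to the laminin sheet by nidogens and heparan sulfate proteoglycans. Human pluripotent stem cells are known to adhere to laminins that contain the LAMA5 chain. The sequencing reads report what the cells transcribed, not the protein laid on the wells.

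Libraries held between 20606450 and 26836686 estimated counts. Levels are given as CPM (counts over TMM-scaled library sizes, scaled to a common total), which serve to compare wells for 1 gene. Levels of different genes are compared only per transcript length, as TPM (abundance corrected for length, with an equal total for every library) or as CPM per kb of the longest annotated transcript. Fold changes are LN-521+LN-221 over LN-521, from edgeR's quasi-likelihood test, with p-values adjusted by Benjamini-Hochberg over 17608 genes and a threshold of 0.05. Of the 35 members, 33 had enough counts to be tested, and 25 reached 1 TPM in all 6 libraries. VTN, which encodes the adhesive glycoprotein vitronectin, had 4, 2 and 6 counts in the LN-521 wells and 10, 9 and 6 in the LN-521+LN-221 wells. LAMB4, the beta-4 laminin chain, had 0 counts in 5 libraries and 1 count in LN-521+LN-221 replicate 3. Neither was tested.

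Expression of 3 members differed between the coatings. LAMB1, which encodes the beta chain found in laminin-111 and laminin-511, rose, and FN1 (fibronectin) and COL18A1 (the collagen XVIII core protein) fell. That is 9.09% of the 33 tested members, against 2.53% of all genes tested; 1.4% of all genes were called higher and 1.14% lower. An unadjusted p under 0.05 was reached by 9 members (27.3%, against 14.5% of all genes). The CPM of the 2 coatings did not overlap for 10 members (30.3%, against 19.9% of all genes). The median log2 fold change was 0.02 over the members and 0.00 over all genes, with 18 members above 0 and 15 below. The median absolute log2 fold change was 0.125 over the members and 0.106 over all genes. Of the 35 members 25 reached 1 TPM in all libraries, against 21.9% of all 60499 genes, and the shares above were not matched for expression level. The members were chosen with earlier results of these data known, so these shares are a description and not an independent test. In RNA from whole wells, fewer cells of a type and less RNA per cell cannot be told apart.

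LAMB1 (ENSG00000091136) lies on the minus strand of chromosome 7 at 107923799-108003255 (GRCh38, GENCODE 29). Its CPM was 70.4, 69.1 and 65.4 in the LN-521 wells and 91.3, 95.3 and 93.7 in the LN-521+LN-221 wells. All 3 wells with laminin-221 lay above all 3 without it, by more than the spread within either coating. The increase was 36.8%, a log2 change of 0.45 ± 0.06 (SE; edgeR adjusted p = 1.61e-04). It passed the threshold with each library left out in turn, at adjusted p of at most 0.00504. On log2 TPM in limma the difference was as large, 0.44 with a pseudocount of 1, but did not pass (adjusted p = 0.401). DLD, a gene that shares exon sequence with LAMB1 on the opposite strand, had a log2 change of 0.11 ± 0.06 (SE; edgeR adjusted p = 0.441). Whether the counting used the strand is not given in the sources used here.

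FN1 (ENSG00000115414) lies on the minus strand of chromosome 2 at 215360440-215436172. Fibronectin is a fibril-forming glycoprotein bound mainly by integrins of the RGD-binding class. Its CPM was 387, 395 and 422 in the LN-521 wells and 293, 296 and 290 in the LN-521+LN-221 wells. The lowest well on LN-521 stood well above the highest in the LN-521+LN-221 wells. The log2 change was -0.45 ± 0.05 (SE; edgeR adjusted p = 5.1e-05), so expression was 27.0% lower. The fall also passed without each library in turn, at adjusted p of at most 0.00172, and not on log2(TPM + 1) in limma, where it was -0.42 (adjusted p = 0.371). FN1 shares no exon sequence with another annotated gene.

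The 250 bases upstream of the RefSeq start sites of these oppositely moving genes follow, 5′ to 3′ on the coding strand (RefSeq, GRCh38.p14; 32 of the 35 members have a promoter entry). The LAMB1 stretch is chr7:108003162-108003411 and the FN1 stretch chr2:215436069-215436318, both on the minus strand. GENCODE 29 places both starts further upstream, so that the last 94 bases of the LAMB1 stretch and the last 104 of the FN1 stretch lie inside its gene spans; distances here are to the RefSeq starts. Capitals mark matches on either strand to 5 motifs. These were the GC box, spelled GGGCGG, the CCAAT box, known by its letters, and the TATA box, searched as TATAAA. The other two were the cAMP response element, spelled TGACGTCA, and the AP-1 site, searched as TGANTCA.
LAMB1 upstream: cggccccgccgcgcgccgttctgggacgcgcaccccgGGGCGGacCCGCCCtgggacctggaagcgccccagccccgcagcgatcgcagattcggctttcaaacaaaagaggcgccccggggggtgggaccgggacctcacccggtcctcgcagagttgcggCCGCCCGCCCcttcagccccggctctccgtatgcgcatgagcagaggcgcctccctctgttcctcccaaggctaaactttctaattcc
FN1 upstream: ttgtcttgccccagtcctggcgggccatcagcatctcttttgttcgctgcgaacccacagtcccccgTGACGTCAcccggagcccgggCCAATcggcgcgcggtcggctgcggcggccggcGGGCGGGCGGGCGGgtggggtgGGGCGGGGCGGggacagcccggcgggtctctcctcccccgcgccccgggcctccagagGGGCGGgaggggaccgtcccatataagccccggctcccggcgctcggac
The LAMB1 stretch held 4 GC box matches and no match to the other motifs. In the FN1 stretch there were 6 GC box matches, some overlapping, with 1 CCAAT box beginning 162 bases before the start and 1 cAMP response element beginning 183 bases before it. Of 35116 promoter stretches of the same length, 42.6% held a GC box, 32.0% a CCAAT box, 10.7% a TATA box, 1.65% a cAMP response element and 6.57% an AP-1 site. A match describes the letters only and no factor binding was measured.

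COL18A1 (ENSG00000182871; chromosome 21, 45405137-45513720, plus strand) encodes the proteoglycan core whose end fragment is endostatin. Its CPM was 233, 266 and 216 in the LN-521 wells and 201, 194 and 203 in the LN-521+LN-221 wells. The coatings did not overlap, but LN-521 replicate 2 stood highest and the nearest wells were close. The log2 fold change was -0.26 ± 0.07 (SE; edgeR adjusted p = 0.0489), 16.2% lower and just inside the threshold. Without LN-521 replicate 2 it was -0.17 (adjusted p = 0.0849). Leaving out LN-521+LN-221 replicate 1, 2 or 3 gave -0.26, -0.24 and -0.27, with adjusted p of 0.170, 0.284 and 0.155. SLC19A1, which shares exon sequence with it on the opposite strand, was at a mean of 9.42 CPM in the LN-521 wells and 8.79 in the LN-521+LN-221 wells (edgeR adjusted p = 0.753). In all, 13 members share exon sequence with a gene on the opposite strand, and their counts are uncertain to that extent.

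**Figure D1:**
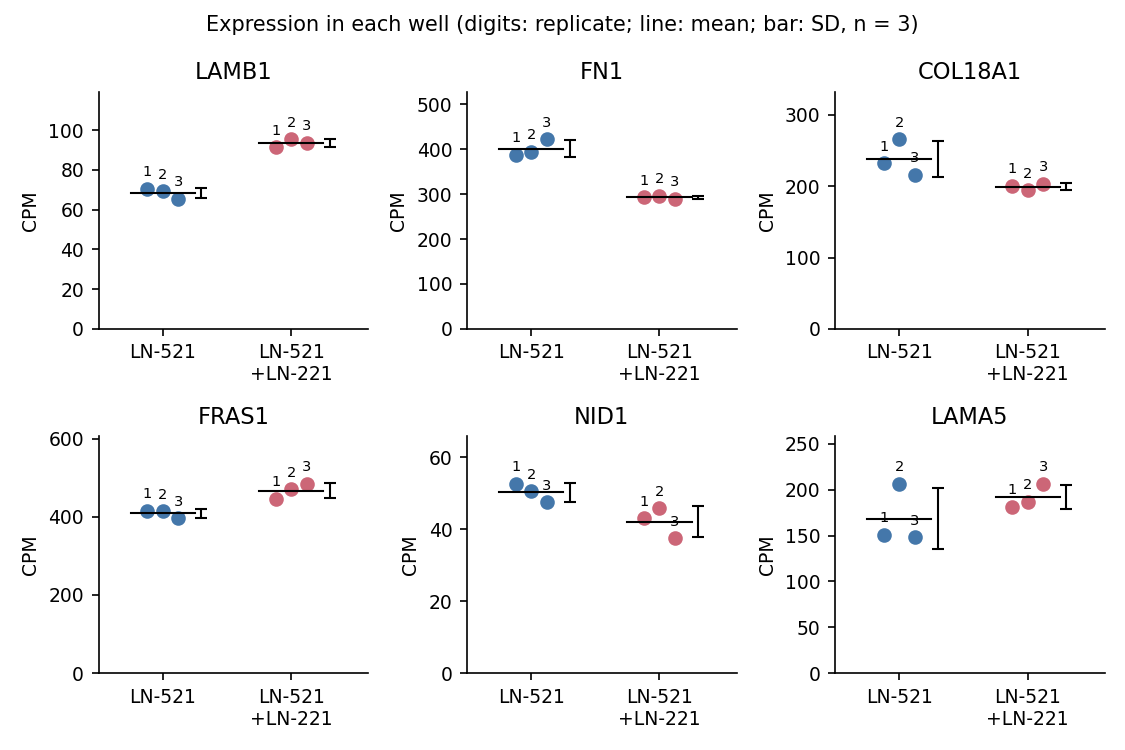
CPM (vertical axes, from 0) of 6 members in each well by coating, with the mean (line) and SD (bar, n = 3). LAMB1 and FRAS1 lie higher and FN1, COL18A1 and NID1 lower in all wells with laminin-221, while the LAMA5 wells overlap, with LN-521 replicate 2 at 207 CPM.

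The genes for the chains of both coating proteins did not differ at the threshold. LAMA5 had 151, 207 and 148 CPM in the LN-521 wells and 182, 187 and 207 in the LN-521+LN-221 wells, a log2 change of 0.18 ± 0.14 (SE; edgeR adjusted p = 0.625). LN-521 replicate 2 lay as high as the highest well with laminin-221, and the other LN-521 wells lay below all 3. Without that library the log2 fold change was 0.36 (edgeR adjusted p = 4.86e-04), and with a correction for GC content it was 0.26 (adjusted p = 0.0661). It was 0.11 without LN-521 replicate 1 (adjusted p = 0.805) and 0.10 without LN-521 replicate 3 (adjusted p = 0.833). LAMA2, the alpha chain that laminin-221 brings to the coating, had 42.2, 40.5 and 42.0 CPM in the LN-521 wells and 38.6, 37.7 and 38.1 in the LN-521+LN-221 wells. The wells with laminin-221 were all lower, by 8.25%, but the test did not pass (log2 fold change -0.12 ± 0.07, SE; edgeR adjusted p = 0.412). LAMB2, the beta chain of both coating proteins, had 122, 165 and 147 CPM against 140, 153 and 158, and the wells overlapped (adjusted p = 0.850). LAMC1, the gamma chain of both, had 255, 271 and 271 CPM on LN-521. It had 250, 253 and 254 CPM in the LN-521+LN-221 wells, all below the lowest LN-521 well, with a log2 change of -0.07 ± 0.05 (SE; edgeR adjusted p = 0.562).

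Among the other laminin chains, LAMA1, the alpha chain of laminin-111, had 160, 175 and 166 CPM in the LN-521 wells and 170, 179 and 186 in the LN-521+LN-221 wells (edgeR adjusted p = 0.490). These wells overlapped. LAMC3, which encodes the gamma-3 chain, had 16.0, 19.1 and 16.0 CPM in the LN-521 wells and 15.0, 13.2 and 13.7 in the LN-521+LN-221 wells. Its wells did not overlap, and its log2 change of -0.29 ± 0.10 did not pass (SE; edgeR adjusted p = 0.161). LAMA3, LAMA4 and LAMB3, chains known from epithelial and vascular basement membranes, were at 0.76 to 3.23 CPM in every library. None of these 3 passed the test, and at such levels their SE was 0.18 to 0.30 on the log2 scale, so changes of the size seen for LAMB1 could not be resolved for all of them.

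The chains at 1 TPM or more in all 6 libraries were LAMA1, LAMA2 and LAMA5 (alpha), LAMB1 and LAMB2 (beta), and LAMC1 and LAMC3 (gamma). Only the LAMC1 and LAMC3 gamma chains are among the members. The expressed chains could combine into 12 trimers, laminin-111, laminin-113, laminin-121, laminin-123, laminin-211, laminin-213, laminin-221, laminin-223, laminin-511, laminin-513, laminin-521 and laminin-523. Both coating proteins, laminin-521 and laminin-221, are among them, so the cells transcribed all 3 chains of each. This list follows from co-expression in a well and shows neither assembly nor secretion, and some of the 12 may not form. A threshold of 0.5 TPM gave the same number, 12. At 5 TPM in all libraries LAMA2 and LAMC3 drop out and 4 trimers remain, laminin-111, laminin-121, laminin-511 and laminin-521. LAMA2 stood at 3.11 to 3.86 TPM and LAMC3 at 1.80 to 3.09 TPM.

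By TPM, LAMA5 was the leading alpha chain, at 26.0 to 38.2 TPM, above LAMA1 at 14.8 to 17.1 TPM. On LN-521 it made up 60.6 ± 4.77% of the alpha chain TPM and LAMA1 30.1 ± 3.34% (SD, n = 3). On LN-521+LN-221 the shares were 63.4 ± 0.872% and 28.98 ± 0.858% (SD, n = 3; two-sided exact permutation p = 0.4 for LAMA5 and 0.6 for LAMA1, or 0.533 and 0.6 adjusted over the 4 chain shares tested). The LAMA5 share difference of 2.76 percentage points was 1.28 without LN-521 replicate 3, 1.49 without replicate 1 and 5.51 without replicate 2. That of LAMA1, -1.11 points, was 0.24 without LN-521 replicate 3, -0.59 without replicate 1 and -2.98 without replicate 2. On counts per kb of the longest transcript the order was not the same: LAMA1 held 45.4% and LAMA5 41.2% on LN-521, and 44.8% and 43.7% in the LN-521+LN-221 wells. Per kb the LAMA5 to LAMA1 ratio ran from 0.813 to 1.07 over the 6 wells, so the levels of these 2 chains did not part beyond their spread. Their order thus depends on the length assigned to the transcripts.

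LAMB2 exceeded LAMB1 in every library on both scales, and its lead was smaller in the LN-521+LN-221 wells. LAMB1 was 19.7%, 16.9% and 14.6% of beta chain TPM in the LN-521 wells and 25.1%, 20.7% and 23.1% in the LN-521+LN-221 wells. All 3 wells with laminin-221 lay above the others, and the means were 17.1 ± 2.60% and 23.0 ± 2.22% (SD, n = 3). The two-sided exact permutation p was 0.1, the smallest that 3 wells against 3 can give, and 0.2 when adjusted over the 4 chain shares. Per kb, the LAMB1 share was 31.7 ± 3.62% in the LN-521 wells and 37.8 ± 1.19% in the LN-521+LN-221 wells (SD, n = 3), again without overlap. The LAMB2 to LAMB1 ratio was 4.93 in TPM and 2.16 per kb on LN-521, against 3.37 and 1.64 in the LN-521+LN-221 wells. LAMC1 made up 94.9 ± 0.272% of the member gamma chains' TPM in the LN-521 wells and 95.5 ± 0.232% in the LN-521+LN-221 wells (SD, n = 3; exact permutation p = 0.1, adjusted 0.2). Per kb the LAMC1 shares were 92.5%, 91.7% and 92.93% in the LN-521 wells against 92.86%, 93.7% and 93.5%, and overlapped (exact permutation p = 0.2).

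The 3 chain classes were summed per kb, as in the plot of laminin chain RNA. On LN-521 the sums were 35.6 ± 3.44 for alpha, 37.6 ± 3.58 for beta and 36.4 ± 1.32 for gamma chains (CPM per kb; SD, n = 3). On LN-521+LN-221 they were 38.4 ± 1.89, 43.0 ± 2.00 and 34.3 ± 0.138. The ranges of the 3 sums overlapped in the LN-521 wells. In the LN-521+LN-221 wells they did not, with beta at 40.7 to 44.5, alpha at 36.7 to 40.4 and gamma at 34.2 to 34.4. Per kb the gamma sum was lower in all 3 wells with laminin-221, while the alpha and beta sums overlapped between coatings. In TPM the mean alpha, beta and gamma sums were 51.4, 69.1 and 51.3 in the LN-521 wells and 58.3, 70.8 and 45.9 in the LN-521+LN-221 wells. There the gamma sums of the wells overlapped between coatings, at 61.0, 44.7 and 48.3 in the LN-521 wells against 47.7, 46.9 and 43.0, as did the alpha and beta sums. The beta class had the highest mean sum on both scales and both coatings. In the LN-521 wells its range lay above those of the other classes in TPM, at 66.3 to 71.7, and overlapped them per kb.

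**Figure D2:**
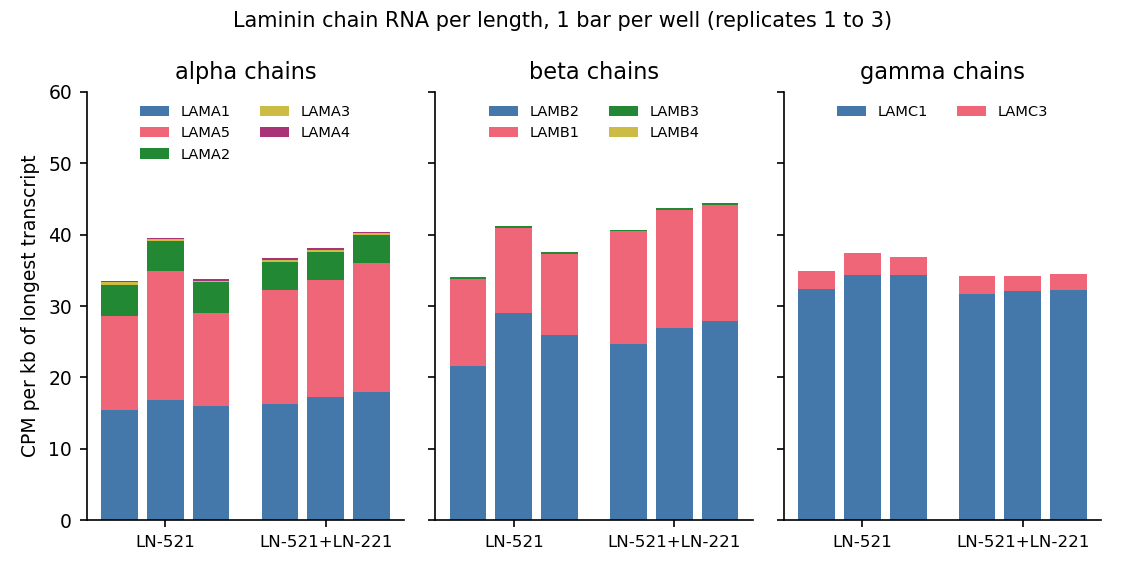
CPM per kb of longest annotated transcript (vertical axis, from 0) for laminin alpha, beta and gamma chains, stacked by gene with 1 bar for each well. The class sums run from 33.5 to 44.5, and the LAMB1 part of the beta bars is 29.1% to 35.8% in the LN-521 wells and 36.5% to 38.9% in the LN-521+LN-221 wells.

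The collagen IV genes lie as head-to-head pairs, COL4A1 with COL4A2, COL4A3 with COL4A4, and COL4A5 with COL4A6. None of the 6 passed the test. COL4A1 and COL4A2, which make the common collagen IV trimer, have RefSeq starts on opposite strands 126 bases apart on chromosome 13. In GENCODE 29 their spans overlap by 1422 bases, with COL4A1 starting at 110307233 and COL4A2 at 110305812, so 76 bases of the stretch shown lie inside COL4A1 and all 126 inside COL4A2. The stretch between their starts (chr13:110307158-110307283, RefSeq, GRCh38.p14) is shown because both genes of the pair have a RefSeq start beside it; it is written on the COL4A2 strand with the same motifs in capitals.
COL4A2 to COL4A1: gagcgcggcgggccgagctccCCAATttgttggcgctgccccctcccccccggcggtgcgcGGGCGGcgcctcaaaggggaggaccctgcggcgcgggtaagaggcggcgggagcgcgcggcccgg
It held 1 GC box and 1 CCAAT box on that strand. Of the 126 bases before all RefSeq starts, 34.6% held a GC box, 21.1% a CCAAT box, 5.87% a TATA box, 1.33% a cAMP response element and 3.5% an AP-1 site.

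COL4A1 had 120, 114 and 106 CPM in the LN-521 wells and 105, 108 and 105 in the LN-521+LN-221 wells (edgeR adjusted p = 0.518). COL4A2 had 106, 115 and 102 CPM against 101, 104 and 108 (edgeR adjusted p = 0.794), so both genes overlapped between coatings. Per kb the ratio of COL4A1 to COL4A2 was 1.03 ± 0.0696 in the LN-521 wells and 1.00 ± 0.0376 in the LN-521+LN-221 wells (SD, n = 3). COL4A5 had a log2 change of 0.16 ± 0.07 (SE; edgeR adjusted p = 0.245) and COL4A6 one of 0.11 ± 0.08. The COL4A6 value was 0.0712 without LN-521 replicate 3 and 0.0386 without LN-521+LN-221 replicate 3. COL4A5 exceeded COL4A6 per kb by 2.97 times in the LN-521 wells and 3.10 times in the LN-521+LN-221 wells. As a share of collagen IV CPM per kb, COL4A5 and COL4A6 together were 27.9%, 28.9% and 28.5% in the LN-521 wells and 30.96%, 31.3% and 32.6% in the LN-521+LN-221 wells. These shares did not overlap, whereas in TPM they did (34.7 ± 2.44% against 38.3 ± 1.16%; SD, n = 3). COL4A3 and COL4A4, known from the glomerular basement membrane, were at 0.39 to 2.74 CPM. PXDN, the peroxidase that forms sulfilimine cross-links in collagen IV, was at 228 to 247 CPM (log2 fold change 0.02 ± 0.05, SE; edgeR adjusted p = 0.915).

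NID1 encodes the first nidogen, which binds the laminin gamma chain and collagen IV. Its CPM was 52.7, 50.5 and 47.5 in the LN-521 wells and 43.1, 45.8 and 37.5 in the LN-521+LN-221 wells. Every well with laminin-221 was lower, and the log2 change of -0.25 ± 0.08 did not pass (SE; edgeR adjusted p = 0.105), although it did without the low-count filter (0.0246). It passed in 0 of 6 edgeR fits that left out 1 library, and was -0.18 without LN-521+LN-221 replicate 3 (adjusted p = 0.434). On log2(TPM + 1) in limma it did not pass (adjusted p = 0.794). NID2, the related second nidogen, had 15.9, 18.1 and 16.8 CPM in the LN-521 wells and 18.0, 17.3 and 16.4 in the LN-521+LN-221 wells (edgeR adjusted p = 0.940). NID1 exceeded NID2 per kb by 2.44 ± 0.240 times in the LN-521 wells and 2.01 ± 0.156 times in the LN-521+LN-221 wells (SD, n = 3), with no overlap between wells.

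Perlecan and agrin, heparan sulfate proteoglycans that bind laminins, did not pass the test. HSPG2 (perlecan) had 155, 195 and 164 CPM in the LN-521 wells and 176, 170 and 188 in the LN-521+LN-221 wells (edgeR adjusted p = 0.802). AGRN (agrin) had 208, 277 and 219 CPM against 236, 238 and 249 (edgeR adjusted p = 0.893). In both genes LN-521 replicate 2 was the highest of all 6 wells. COL15A1, which is related to COL18A1, was at 0.44 to 0.84 CPM.

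FRAS1, FREM1 and FREM2 encode a complex that holds embryonic epithelia to the matrix below. FRAS1 had 416, 414 and 396 CPM in the LN-521 wells and 446, 470 and 485 in the LN-521+LN-221 wells. The wells did not overlap, and at 0.19 ± 0.05 on the log2 scale it lay just outside the threshold (SE; edgeR adjusted p = 0.0586) and inside it in DESeq2 (adjusted p = 0.0135). On log2(TPM + 1) in limma FRAS1 did not pass (adjusted p = 0.660). It passed in 2 of 6 edgeR fits that left out 1 library, and adjusted p was 0.297 without LN-521+LN-221 replicate 3. FREM2, at 188 to 219 CPM, had a log2 change of -0.09 ± 0.06 (SE; edgeR adjusted p = 0.526), and FREM1, at 5.38 to 7.22 CPM, one of 0.13 ± 0.14 (adjusted p = 0.742). Single libraries moved both: FREM2 was -0.0316 without LN-521 replicate 1, and FREM1 was 0.0643 without LN-521 replicate 3 and 0.0267 without LN-521+LN-221 replicate 3. By CPM per kb FRAS1 stood near 26.1 on LN-521, above FREM2 at 12.7 and FREM1 at 0.583.

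The other matrix members did not pass the test. SPARC, a collagen-binding protein, was at 204 to 207 CPM in the LN-521 wells and 184 to 193 in the LN-521+LN-221 wells without overlap, a log2 change of -0.14 ± 0.05 (SE; edgeR adjusted p = 0.205). SPARC had the highest TPM of all members, 126 to 145. Its relatives SMOC1 and SMOC2 were at 1.95 to 2.83 and 9.06 to 11.8 CPM. FBLN1 and FBLN2 (fibulins, matrix glycoproteins that bind laminins) were at 62.6 to 75.9 and 21.8 to 28.9 CPM. TINAGL1, a laminin-binding protein, was at 5.49 to 7.41 CPM in the LN-521 wells and 3.08 to 5.62 in the LN-521+LN-221 wells. Its log2 change of -0.42 ± 0.19 had the largest size among the 30 tested members that did not pass (SE; edgeR adjusted p = 0.331), and its wells overlapped. It was -0.19 without LN-521+LN-221 replicate 1, the well at 3.08 CPM. Of those 30 members, 14 had a log2 fold change within 0.1 of 0.

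**Figure D3:**
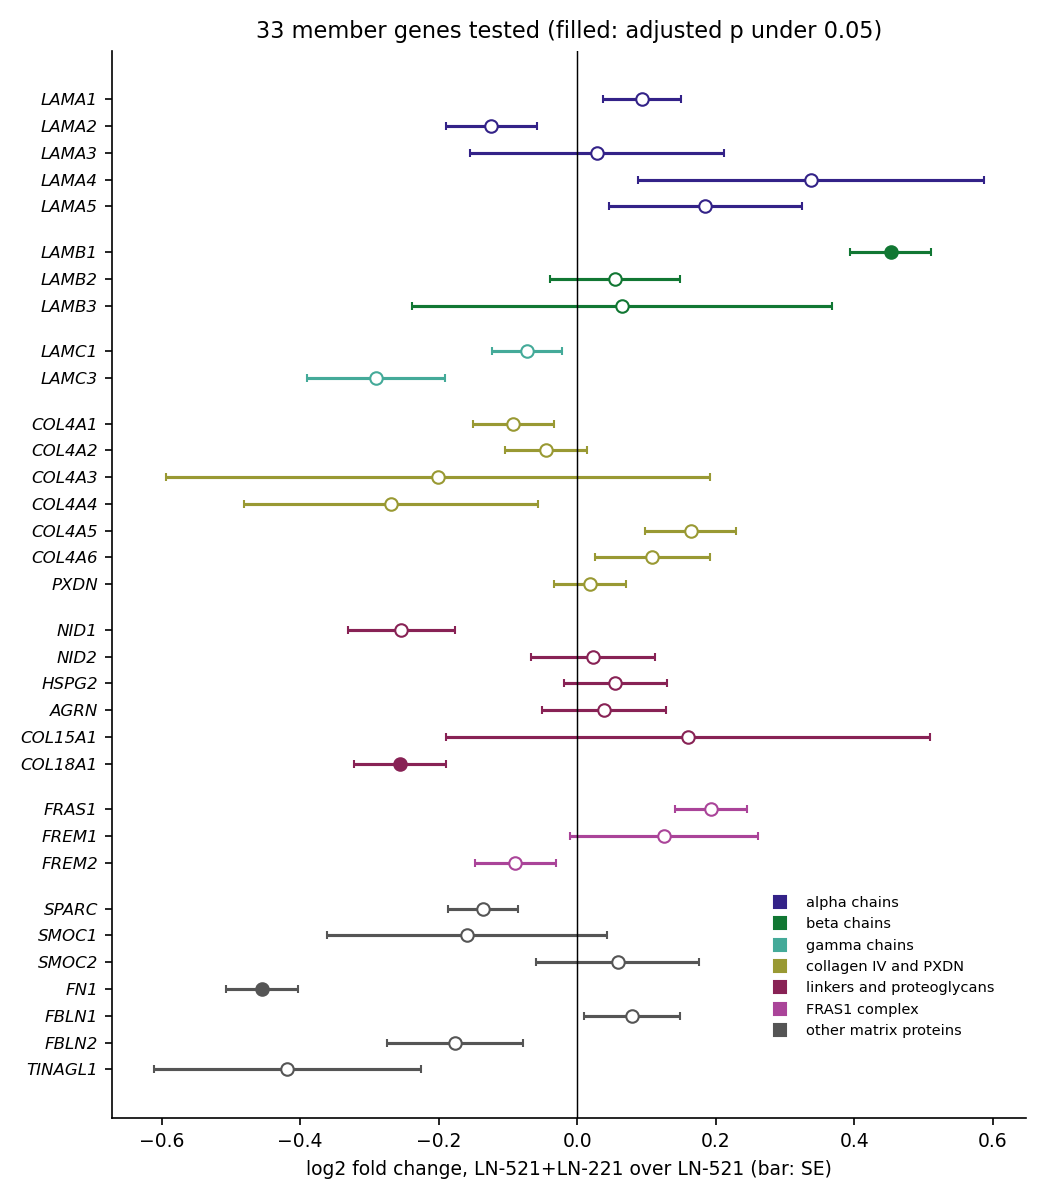
Log2 fold change of LN-521+LN-221 over LN-521 (horizontal axis; bars, SE) for the 33 tested members, grouped by role. Filled points passed the adjusted p threshold; these are LAMB1 at 0.45, COL18A1 at -0.26 and FN1 at -0.45.

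LN-521 replicate 2 departed from the other LN-521 wells by GC content, and many members are rich in GC. Across 17473 genes the Spearman correlation between a library's log2 deviation from the mean of all 6 libraries and transcript GC was 0.542 in this library and between -0.323 and 0.0723 in the other 5. In the 24 members at a mean of 10 CPM or more, the log2 deviation of this library from the other LN-521 wells correlated with GC at Pearson 0.873 and Spearman 0.846. This is a description over genes of 1 library, which are not replicates. The median deviation was 0.27 in the 8 members at 60% GC or more and 0.04 in the other 25. Over all genes it was 0.19 for the 2530 at that GC content and -0.03 for the 14943 below it, so the shift was library-wide. LAMA5, AGRN, HSPG2, LAMB2 and COL18A1 are in the GC-rich group, and LAMB1 (49.5% GC) and FN1 (42.2% GC) are not. In the GC-corrected fit the log2 fold change of COL18A1 was -0.19 (edgeR adjusted p = 0.0132), that of LAMB1 0.46 and that of FN1 -0.48.

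**Figure D4:**
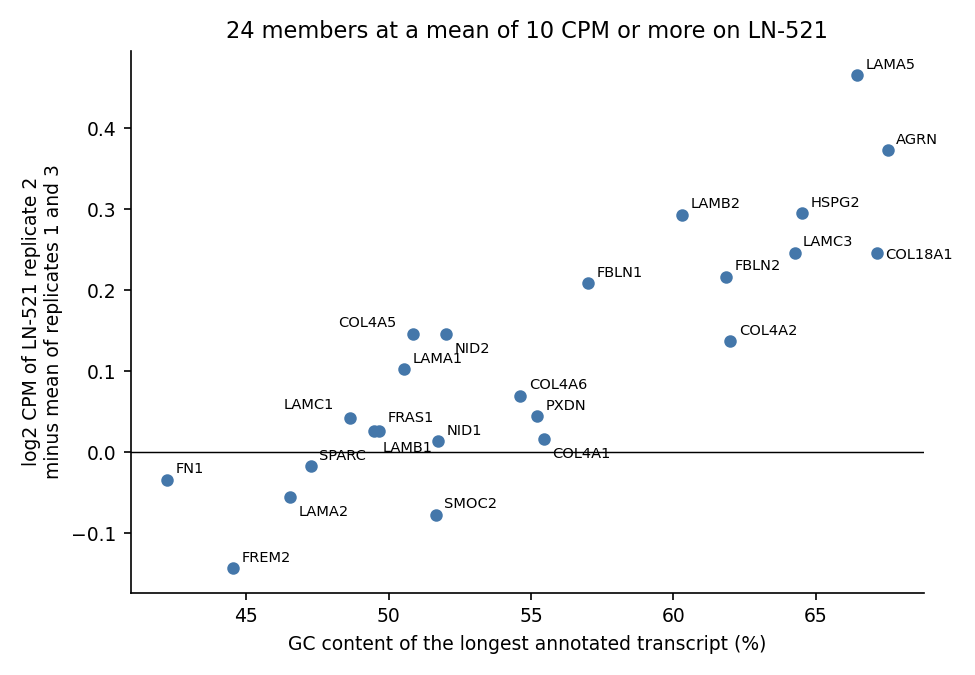
Log2 CPM of LN-521 replicate 2 minus the mean of LN-521 replicates 1 and 3 (vertical axis) against transcript GC content in percent (horizontal axis) for 24 members. Points climb from FREM2 and FN1 on the left to AGRN and LAMA5 on the right; the Pearson correlation is 0.873.

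The TPM of some members rest on lengths far from the longest transcript, and the ratio of counts to TPM shows which length was used. In 120 genes with a single annotated transcript the length implied by counts per TPM was 0.986 to 1.02 times the annotated length (10th to 90th percentile). FREM2 (16.6 kb), COL4A1 (6.60 kb on LN-521) and NID1 (5.93 kb) were close to their longest transcript. LAMA5 was at 4.42 ± 0.218 kb on LN-521, against a longest transcript of 11.4 kb, and LAMB2 at 2.08 ± 0.185 kb against 5.67 kb (SD, n = 3). Their TPM are therefore high for their counts, which is where the alpha chain orders above part between the 2 scales. HSPG2 was at 8.23, 10.3 and 8.74 kb in the LN-521 wells and 7.86, 7.73 and 7.95 kb in the LN-521+LN-221 wells, and these did not overlap. Its log2 difference in implied length, -0.21, lay outside the 5th to 95th percentile of 8391 genes (-0.109 to 0.105). Of the 18 members plotted by implied length, PXDN, at -0.13, also lay below that range, and LAMB2 (0.18) and LAMC1 (0.11) lay above it. For LAMB2 the log2 fold change was 0.05 by counts and -0.07 on log2(TPM + 1), and its TPM enters the LAMB1 share of beta chain TPM. NID2, at under 5 TPM and not plotted, was at -0.18. On log2(TPM + 0.1) the HSPG2 difference was 0.31 (limma), against 0.05 by counts.

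**Figure D5:**
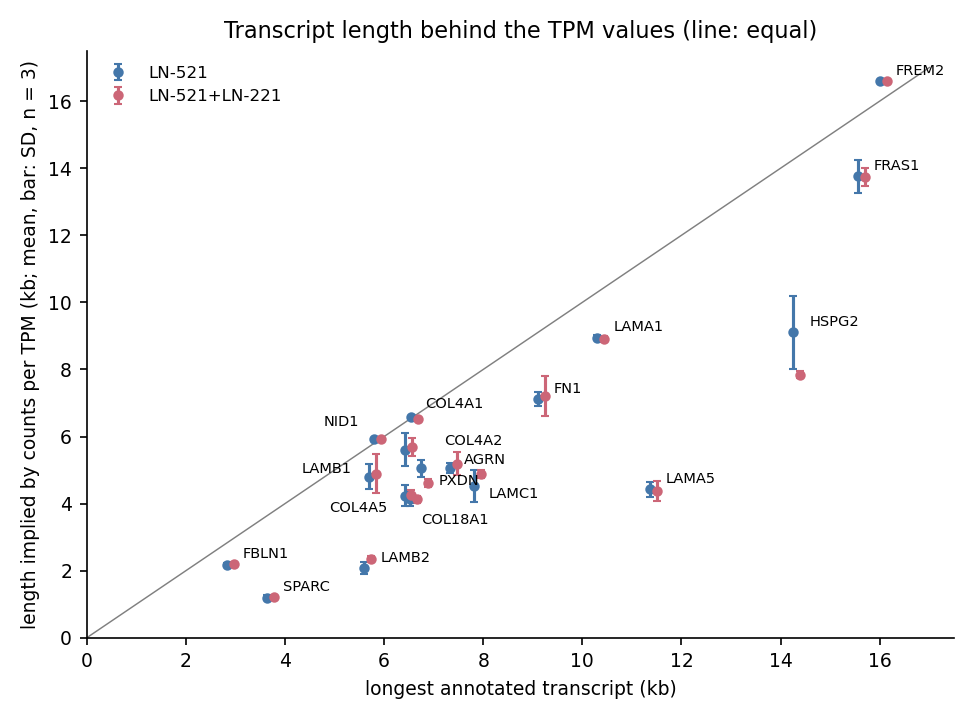
Transcript length implied by counts per TPM (vertical axis, kb; mean and SD, n = 3 wells) against the longest annotated transcript (horizontal axis, kb) for 18 members, with the line of equality. LAMA5, HSPG2, LAMB2 and SPARC lie far below the line, FREM2, NID1 and COL4A1 on or near it, and points are shifted slightly sideways by coating.

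The genes that fold, modify, cut and bind these proteins were read from 5 lists; over all genes tested, 14.5% had an unadjusted p under 0.05 and 2.53% were called. Of 20 genes for collagen folding, hydroxylation and cross-linking, all tested, none passed (edgeR; 3, or 15.0%, at an unadjusted p under 0.05, none in DESeq2). Their median log2 fold change was -0.08, with 15 below 0. Of 20 proteases and inhibitors, all tested, none passed in edgeR or DESeq2 and 5 (25%) had an unadjusted p under 0.05; the median was -0.14, with 16 below 0. For the 14 genes that build the laminin-binding glycan of dystroglycan these numbers were 0 by both tools and 2 (14.3%) unadjusted. Their median was 0.07, with 10 above 0. For 21 tested of 23 laminin-related and other basement membrane partners the numbers were again 0 by both tools and 2 (9.52%). The median of these partners was 0.02, with 12 above 0. Of 12 laminin receptor genes, which include DAG1 of the glycan list, 2 (16.7%) had an unadjusted p under 0.05, against 14.5% of all genes. Over the 12 the median was -0.06, with 8 below 0. In edgeR 1 (8.33%) fell, against 1.14% of all genes called lower, and 11 did not pass. The receptor gene was ITGA3, an integrin subunit that binds laminins with the LAMA5 chain, at 34.2, 43.7 and 41.7 CPM in the LN-521 wells and 29.5, 33.1 and 30.5 in the LN-521+LN-221 wells. Its log2 fold change was -0.36 ± 0.09 (SE; edgeR adjusted p = 0.0370).

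Markers were checked for the labelled cells and for other cells that make basement membrane. All 12 pluripotency markers were at 1 TPM or more in every library, and their sum was 3451 to 3891 TPM in the LN-521 wells and 3394 to 3664 in the LN-521+LN-221 wells. Of the 12, 4 were called (33.3%, against 2.53% of all genes tested). NANOG (log2 fold change -0.73, edgeR adjusted p = 1.65e-04), TDGF1 (-0.65, 8.23e-06) and POU5F1 (-0.36, 0.00366) fell, and LIN28A (0.23, 0.00737) rose. Of 8 markers of primitive or parietal endoderm, a strong source of laminin in embryos, none reached 1 TPM in all libraries. Their sum was 1.83 to 4.13 TPM in the LN-521 wells and 1.51 to 3.02 in the LN-521+LN-221 wells, with SOX17, GATA4, GATA6 and FOXA2 at 0.09 TPM or less and TTR at 0. The trophoblast list summed to 12.9 to 16.2 and 13.0 to 14.6 TPM, nearly all of it KRT7, with VGLL1 at 0. The early mesoderm list summed to 2.00 to 2.51 and 2.26 to 2.75 TPM. The mesenchyme list summed to 126 to 139 and 115 to 141 TPM, from COL1A1, COL1A2 and THY1, with LUM at 0 and COL3A1 at 0.01 TPM or less. THY1 was called lower, 25% of the 4 tested, against 2.53% of all genes tested. The endothelium list summed to 29.8 to 38.3 and 25.8 to 30.5 TPM, mostly KDR, with PECAM1 and CDH5 at 0.13 TPM or less. KDR and TIE1 were called lower and VWF higher, 75% of the 4 tested, against 2.53% of all genes tested. TIE1 was at 0.6 to 1.55 TPM and VWF at 0.14 to 0.62 TPM, so both were low. The neural list summed to 159 to 177 TPM in the LN-521 wells and 182 to 184 in the LN-521+LN-221 wells without overlap. This sum was not tested, and 19.9% of all genes tested did not overlap in CPM. The sum came mainly from NES and TUBB3, whose log2 fold changes of 0.06 and 0.10 did not pass (edgeR adjusted p = 0.712 and 0.496). SOX1 was at 0.12 TPM or less. DCX was called lower, 20% of the 5 tested. The part of these lists in the LAMB1, FN1 and COL18A1 differences was not tested.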

How the data were processed

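Total RNA of 6 wells of H1 cells, 3 for each coating, was sequenced in pairs of 150 bp from a stranded total RNA kit, per the labels' protocols. The deposited sample sheet lists 1 sequencing batch. Submitters' processing notes name cutadapt, STAR 2.5.2b, RSEM 1.2.31 and hg38; the annotation release is not given in the sources used here. The authors deposited estimated counts per gene, of which 6.08% to 6.67% per library are not whole numbers, and TPM values, which are scaled for transcript length. Among members, AGRN alone had counts that were not whole.

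Counts were rounded, filtered with filterByExpr (minimum count 10), scaled by TMM and tested with edgeR 4.0.16 (R 4.3.3; quasi-likelihood, robust, no block) on all 6 libraries. The SE is the absolute log2 fold change over the square root of F. Alternatives were other size factors and filters, DESeq2 1.42.0 (1025 adjusted p-values NA), limma 3.58.1 on log2 TPM, the replicate block, a GC correction (lowess span 0.3) and leaving out each library. Scripts were tested on simulated data. GENCODE 29 gave coordinates, GC content and lengths.

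Members and lists were chosen with earlier results of these data known. Values in every library are given for the coating chains, LAMA1, LAMB1, LAMC3, COL4A1, COL4A2, NID1, NID2, HSPG2, AGRN, FN1 and members passing the threshold; FRAS1 was added after its values were seen.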

Additional observations from a re-analysis of the deposited data

How the results depend on the processing

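The count of all genes past the threshold was 446, and 718 without the low-count filter, 33 and 16 with limma on log2(TPM + 1) and log2(TPM + 0.1), 911 with the GC correction and 963 with that correction and the replicate block. With the replicate block alone it was 646. Same-numbered wells deviated from their coating means with correlations of 0.0684, -0.0316 and -0.0185, so the numbers were not taken to pair wells. Leaving out each library gave 194 (without LN-521+LN-221 replicate 3) to 1179 (without LN-521 replicate 1). It gave 201 without LN-521 replicate 3, 198 without LN-521+LN-221 replicate 2 and 290 without LN-521+LN-221 replicate 1.

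The member count was 3, and 5 with the replicate block, where NID1 and FRAS1 also passed. It was 5 with the GC correction (adding SPARC and FRAS1) and 6 with both (adding SPARC, NID1 and FRAS1). With limma on log2(TPM + 1) and log2(TPM + 0.1) it was 0 and 0 of 26 tested, with 3 and 4 members at an unadjusted p under 0.05. Leaving out each library gave 2 to 6, with 6 without LN-521 replicate 1 (adding LAMC3, FRAS1 and FBLN2). At an adjusted p under 0.1, an alternative chosen after seeing the data, it was 4.

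At 5 TPM 4 trimers remained. The LAMC1 share differed by 0.62 percentage points in TPM and 0.98 per kb, where the wells overlapped. LAMB2 reversed to -0.0721 and -0.0733 and FREM1 to -0.0563 and -0.102 with limma on log2(TPM + 1) and log2(TPM + 0.1); COL4A2 reversed to 0.0134 with the GC correction and 0.0144 with that and the block. The cause was not tested. Leaving out libraries, the log2 fold change crossed 0 for LAMA3 (-0.061 to 0.13), LAMB2 (-0.0532 to 0.16), LAMB3 (-0.12 to 0.30), COL4A2 (-0.0808 to 0.0052), COL4A3 (-0.51 to 0.25), NID2 (-0.02 to 0.0776), HSPG2 (-0.0129 to 0.16), AGRN (-0.0398 to 0.18), COL15A1 (-0.0314 to 0.32), PXDN (-0.0156 to 0.0374) and SMOC2 (-0.0308 to 0.16), none of which passed. Over single members with all libraries, 292 alternative values kept direction and side of the threshold, 6 no longer passed, 9 newly passed and 6 reversed. With 3 wells for each coating the exact permutation p cannot go below 0.1, and members under 1 CPM have wide errors.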
